A study of Mus musculus with 13 samples.

Results

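The genes described are 8 of the 19505 genes measured with a feature of their own name on Clariom S mouse arrays: the serine protease genes Tmprss11e, St14, Tmprss4, Tmprss2, Prss8 and Prss22, and the inhibitor genes Spint1 and Spint2. They were taken by symbol, and each had 1 feature. RNA came from 4T1 tumours, a mammary carcinoma line derived from a BALB/c mouse, raised in a single mammary fat pad and pooled before hybridisation. The 6 groups of 2 arrays were tumours of the 4T1OE line, which overexpresses NLRX1, in Nlrx1-/- and in WT BALB/c hosts, tumours of its control line 4T1OE-CTL in Nlrx1-/- and in WT hosts, and tumours of the untransduced parental line in Nlrx1-/- and in WT hosts. NLRX1 is a mitochondrial protein of the NOD-like receptor family. Each transduced line was 1 line, the species of the construct and the number of tumours in a pool were not given in the sources used here, and the spread between arrays is a spread between pools that may be partly technical. The submitters recommended leaving out Nlrx1-/- parental replicate 1, so 11 arrays were fitted, with 1 Nlrx1-/- parental array among them, and the value of the doubted array is given separately.

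Serine proteases at the surface of epithelial cells cut receptors, growth factor precursors, channels and adhesion proteins just outside the cell. Matriptase, encoded by St14, is a transmembrane protease of nearly all epithelia, and prostasin, encoded by Prss8, is held at the surface by a lipid anchor and acts in the same cascade. Spint1 and Spint2 encode HAI-1 and HAI-2, transmembrane inhibitors with Kunitz domains that bind matriptase and related proteases, and the balance of protease and inhibitor is a known factor in carcinoma growth. Tmprss11e encodes the transmembrane protease DESC1, Tmprss4 and Tmprss2 encode other transmembrane proteases, and Prss22 encodes tryptase epsilon, which is known as a secreted protease of airway epithelium and so is not a membrane protein in the strict sense.

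All values are log2 expression values as deposited, and a difference of 1 is a doubling of the signal. A gene was counted as above background on an array where its value exceeded the median of that array's negative control features, which ran from 5.24 to 5.68 on the fitted arrays. Tmprss11e, St14, Spint1 and Spint2 were above it on 11 of 11 fitted arrays and Prss22 on 10. Prss8 was above it on 5 arrays, Tmprss4 on 2 and Tmprss2 on 0. St14 was only just above it on the 2 Nlrx1-/- 4T1OE-CTL arrays, where its value exceeded 55.2% and 55% of the negative controls, and Prss22 exceeded 49.9% and 66.8% of them there. On these 2 arrays both genes were at the edge of background, as Prss8 was on the 4T1OE arrays, so differences that rest on them are limited by the floor.

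**Figure D1:**
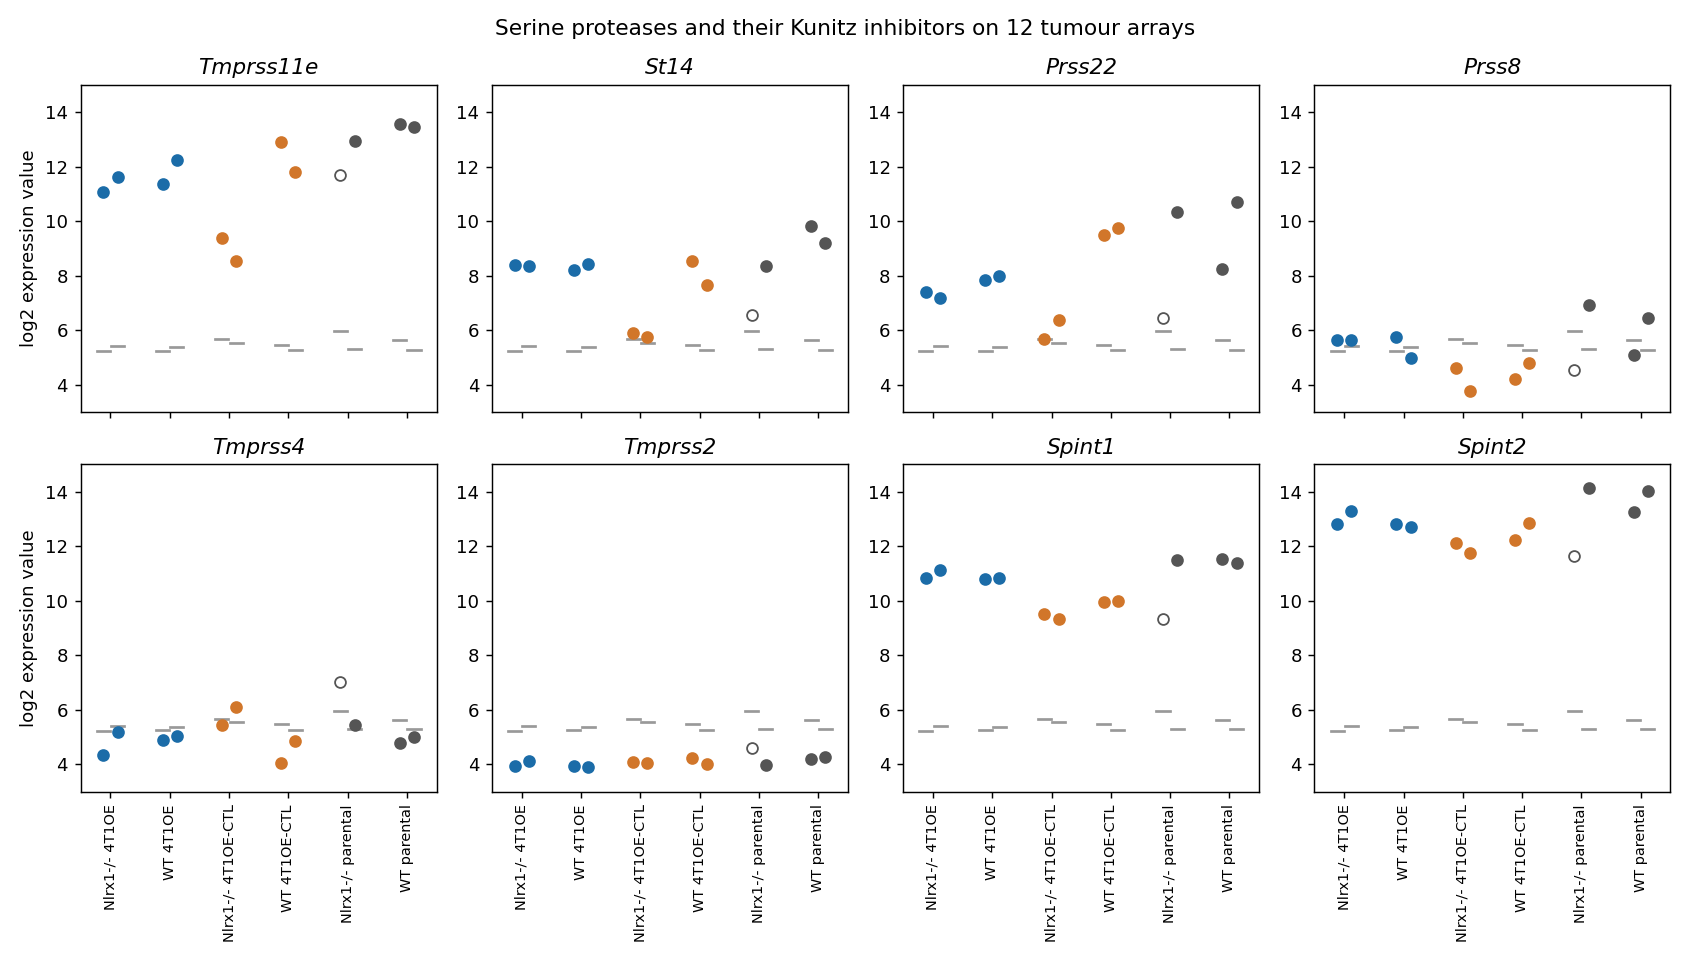
Log2 expression value of each gene (y axis) in the 6 groups (x axis), 1 point per array. Grey ticks mark each array's median of negative control features, and the open point is the Nlrx1-/- parental replicate 1 array left out of the fits. The Nlrx1-/- 4T1OE-CTL arrays are the lowest fitted ones for Tmprss11e, St14, Prss22, Spint1 and Spint2, and Tmprss2 lies under the ticks on all 12 arrays.

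Some properties of whole arrays went with the groups. The standard deviation of the values within an array was 3.093 to 3.121 on the 4T1OE arrays. It was under 3 on both Nlrx1-/- 4T1OE-CTL arrays (2.914 and 2.776), on WT 4T1OE-CTL replicate 1 (2.885) and on WT parental replicate 1 (2.886). Without these arrays only WT 4T1OE-CTL replicate 2 is left of its line. For comparisons with that line, the fit without them is therefore given as an effect size only. Lymph node and B cell markers deviated from their medians by 3.76 on Nlrx1-/- 4T1OE replicate 1 and by 4.87 on Nlrx1-/- 4T1OE-CTL replicate 1, and by -0.28 to 0.38 on the other 9 fitted arrays. Skeletal muscle markers deviated by 3.89 on WT 4T1OE replicate 1, by 2.70 on Nlrx1-/- 4T1OE-CTL replicate 2 and by 2.12 on WT 4T1OE-CTL replicate 1. Of the 25 epithelial markers 24 were above background on at least 1 fitted array and 15 on all 11. On the doubted array, whose median r with the remaining arrays was 0.896 across features, St14 was 6.58, Prss22 6.47, Tmprss11e 11.70, Spint1 9.32 and Spint2 11.64, against 8.35, 10.35, 12.93, 11.48 and 14.14 on Nlrx1-/- parental replicate 2. All 5 genes were lower there, by 1.23 to 3.89, than on the other array of that group, while Tmprss4 was higher (7.02 against 5.44). The doubted array had a standard deviation of 2.526 and a lymph node marker deviation of 2.89. The part of these properties in its values was not tested.

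The first comparison set the transduced control line against the untransduced one. Both inhibitors and 2 of the proteases passed as lower in the 4T1OE-CTL tumours, and the fitted differences of all 8 genes were negative. In limma, with Benjamini-Hochberg adjustment over all 22206 features and a threshold of 0.05, 4 of the 8 genes fell, namely Spint1, Spint2, St14 and Prss8, whereas 1.62% of all features fell and 2.59% passed in either direction. None of the 8 rose, against 0.968% of features. The median difference was -1.73 over the 8 genes and 0.02 over all features. The genes were brought together with earlier results of these arrays known, so this count is a description and no independent evidence.

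The inhibitor gene Spint1 was 9.51 and 9.32 on Nlrx1-/- and 9.95 and 10.00 on WT arrays of the 4T1OE-CTL line, against 11.48 on the Nlrx1-/- array and 11.52 and 11.37 on the WT arrays of the parental line. Every 4T1OE-CTL array lay below every fitted parental array, but none lay below the doubted one (9.32). The fitted difference was -1.74 (SE 0.214, adjusted p = 0.00166), and it passed with any 1 of the 11 arrays left out (-1.84 to -1.63). With the doubted array added it was -1.23 (adjusted p = 0.251). Without the arrays whose standard deviation was under 3 it was -1.34, with only WT 4T1OE-CTL replicate 2 left of its line.

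Spint2 was 12.11 and 11.75 on Nlrx1-/- and 12.24 and 12.87 on WT arrays of the 4T1OE-CTL line, against 14.14 on the Nlrx1-/- array and 13.24 and 14.02 on the WT arrays of the parental line. The fitted arrays of the lines did not overlap for this gene either, but the doubted array (11.64) lay below all 4T1OE-CTL arrays. Spint2 fell by 1.56 (SE 0.309, adjusted p = 0.0218). The call ended without WT parental replicate 2 (adjusted p = 0.0843), without Nlrx1-/- parental replicate 2 (adjusted p = 0.195) and without WT 4T1OE-CTL replicate 1 (adjusted p = 0.0577). It also ended with the doubted array added (-1.02, adjusted p = 0.478), moving by over 1.5 times, and without the 2 lymph node arrays (-1.51, adjusted p = 0.0617). Without the arrays whose standard deviation was under 3 the difference was -1.09, with only WT 4T1OE-CTL replicate 2 left of its line.

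The promoters of the inhibitor genes are shown because both genes fell in this comparison and had a promoter entry. Each is the stretch from 250 bases before to 50 bases after the gene's start in RefSeq (GRCm38.p6), on the gene's strand, chr2:119237110-119237409 on the + strand for Spint1 and chr7:29281928-29282227 on the - strand for Spint2. Capitals mark matches, on either strand, to the E-box CACCTG, the AP-1 motif TGANTCA and the ETS core GGAAGT. No matches overlapped.
Spint1: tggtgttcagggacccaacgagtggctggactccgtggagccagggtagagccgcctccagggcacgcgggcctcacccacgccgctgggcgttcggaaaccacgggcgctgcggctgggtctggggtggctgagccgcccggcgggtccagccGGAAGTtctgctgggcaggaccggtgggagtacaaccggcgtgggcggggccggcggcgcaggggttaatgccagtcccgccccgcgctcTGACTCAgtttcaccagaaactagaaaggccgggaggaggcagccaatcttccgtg
Spint2: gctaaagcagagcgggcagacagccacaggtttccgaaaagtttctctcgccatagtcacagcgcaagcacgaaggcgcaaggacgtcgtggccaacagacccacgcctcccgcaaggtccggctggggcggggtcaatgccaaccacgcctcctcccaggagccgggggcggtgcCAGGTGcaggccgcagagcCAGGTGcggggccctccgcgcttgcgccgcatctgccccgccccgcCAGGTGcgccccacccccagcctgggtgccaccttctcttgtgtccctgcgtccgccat
Spint2 held CACCTG 3 times, in its reverse form. Of the 32851 promoters of that length 0.365% held it 3 or more times and 20.2% at least once. Spint1 held 1 TGANTCA (7.81% of promoters) and 1 GGAAGT (23.8%). The Grainyhead motif AACCGGTT was in neither (0.146% of promoters). A match is a description of the letters and not a shown binding site. Of the 8 genes 3 had an entry, the other being Tmprss2, whose promoter held none of these 4 motifs.

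St14, which encodes matriptase, was 5.92 and 5.77 on Nlrx1-/- and 8.53 and 7.67 on WT arrays of the 4T1OE-CTL line, against 8.35 on the Nlrx1-/- array and 9.83 and 9.20 on the WT arrays of the parental line. The lines overlapped, since 1 WT 4T1OE-CTL array lay above the Nlrx1-/- parental array, but within each host every 4T1OE-CTL array was the lower. It fell by 1.97 in the fit that averages over hosts (SE 0.433, adjusted p = 0.0353). This call held with 4 of the 11 single arrays left out and not with the other 7 (adjusted p up to 0.186). It ended with the doubted array added (-1.52, adjusted p = 0.262), without the 2 lymph node arrays (-1.80, adjusted p = 0.0759) and after quantile normalization (adjusted p = 0.0506). Array weights (adjusted p = 0.0651) and the standard deviation covariate (adjusted p = 0.0612) ended it too. Without the arrays whose standard deviation was under 3 the difference was -1.24, with only WT 4T1OE-CTL replicate 2 left of its line.

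Prss8, the prostasin gene, was below background on all 4 4T1OE-CTL arrays, with 4.62 and 3.79 in Nlrx1-/- and 4.22 and 4.80 in WT hosts, against 6.94 on the Nlrx1-/- array and 5.11 and 6.44 on the WT arrays of the parental line. WT parental replicate 1 was below background too. The fitted difference was -1.85 (SE 0.393, limma, adjusted p = 0.0301), and it rests on these values below background. Its size is therefore given as a rough bound, 0.67 lower, which was not tested. The bound runs from the parental mean down to the 4T1OE-CTL mean of, per array, the higher of the value and the negative control median. WT parental replicate 1 enters the parental mean at 5.11, below background, so the bound is not a strict minimum. The call held with 5 of 11 single arrays left out. It ended with the doubted array added (adjusted p = 0.28) and without the 2 lymph node arrays (adjusted p = 0.0666). Without the arrays whose standard deviation was under 3 the fitted difference was -1.72, with only WT 4T1OE-CTL replicate 2 left of its line.

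Tmprss11e and Prss22 did not pass in this comparison. Tmprss11e was 9.40 and 8.54 on Nlrx1-/- and 12.90 and 11.82 on WT arrays of the 4T1OE-CTL line, against 12.93, 13.55 and 13.44 on the parental arrays. All 4 4T1OE-CTL arrays lay below the fitted parental ones, but the fitted difference of -2.38 missed the threshold (SE 0.599, adjusted p = 0.0611). It passed without WT 4T1OE-CTL replicate 1 (-2.99, adjusted p = 0.019) and in a fit with 1 mean per group (-2.55, adjusted p = 0.00539). Prss22 had a difference of -1.72 (SE 0.798, adjusted p = 0.32) and overlapping lines, and without WT parental replicate 1 it passed with -2.71 (adjusted p = 0.0463). In all, 4 of the 8 genes had 4T1OE-CTL arrays wholly below the fitted parental arrays, where 6.42% of all features did. None lay wholly above them, where 4.88% did. On the doubted array these 4 genes were 9.32 (Spint1), 11.64 (Spint2), 11.70 (Tmprss11e) and 4.54 (Prss8). With that array counted, none of the 4 stayed wholly below.

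**Figure D2:**
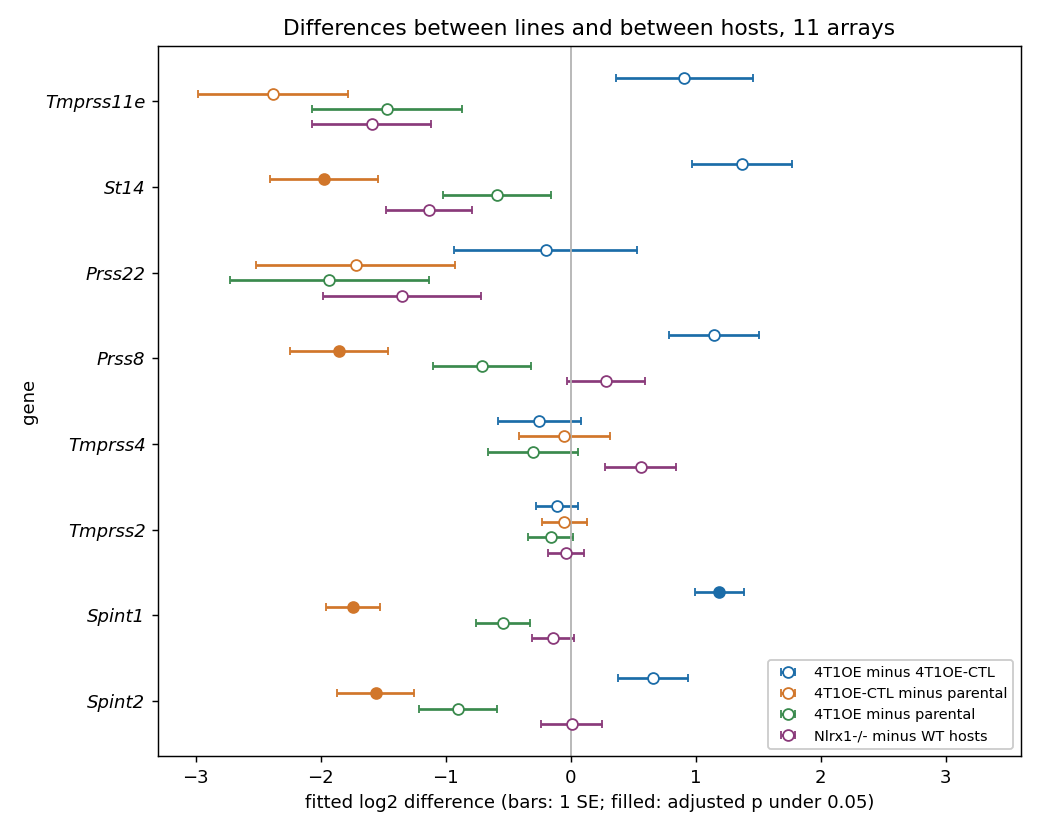
Fitted log2 difference (x axis) of each gene (y axis) in 4 comparisons, with bars of 1 SE from limma on 11 arrays. Filled points passed an adjusted p of 0.05: St14, Prss8, Spint1 and Spint2 with negative differences for 4T1OE-CTL minus parental, and Spint1 with a positive one for 4T1OE minus 4T1OE-CTL. Points of Tmprss2 and Tmprss4 rest on values mostly under the negative control medians, and those of Prss8 on values near them.

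Epithelial markers moved with these genes. Of 25 epithelial markers 12 fell in 4T1OE-CTL against parental tumours and none rose, and the list deviated by -0.97 to 0.17 on 4T1OE-CTL arrays, against 0.71 to 1.86 on parental arrays. In bulk tumours, fewer cells of a type and less RNA per cell cannot be told apart. With that deviation as a covariate Spint1 had a difference of -1.16 (SE 0.532), Spint2 one of -0.65 (SE 0.757), St14 one of 0.08 (SE 0.921) and Tmprss11e one of -0.03 (SE 1.38). None of the 8 passed in that fit, and 0.0225% of all features did, with larger SEs than in the fit without it. Skin and stratified epithelium markers, of which 9 of 22 were below background on every fitted array, deviated by 0.00 to 1.13 on 4T1OE-CTL arrays, against -0.24 to 1.87 on parental arrays, and mammary secretory markers by -0.06 to 0.68, against -0.10 to -0.06. Skeletal muscle markers had positive differences for 18 of 18 (median 1.76, 1 passing). They deviated by 0.00 to 2.70 on 4T1OE-CTL arrays, against -0.43 to -0.21 on the fitted parental arrays, without overlap. Lymph node markers had positive differences for 12 of 12 (median 0.94, 0 passing in limma). Of 11 fibroblast markers 2 fell (median -0.93), and the list deviated by -0.41 to 0.25 on 4T1OE-CTL arrays, against 0.12 to 1.49 on parental arrays. The part of these markers in the result was not tested.

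The next comparison set the overexpressing line against its transduced control. Spint1 rose, and it was the only one of the 8 genes to pass, while 3.69% of all features rose, 1.04% fell and 4.73% passed in either direction. It was 10.83 and 11.12 on Nlrx1-/- and 10.79 and 10.82 on WT arrays of the 4T1OE line, against 9.51, 9.32, 9.95 and 10.00 on the 4T1OE-CTL arrays. The lines did not overlap, and the 4T1OE arrays lay within a range narrower than that of the control arrays. The fitted difference was 1.19 (SE 0.196, adjusted p = 0.0134). The call ended without Nlrx1-/- 4T1OE replicate 1 (1.19, adjusted p = 0.0563) and without the 2 arrays highest in lymph node genes (1.15, adjusted p = 0.088). It also ended with the doubted array added (1.19, adjusted p = 0.193) and with the array standard deviation (0.99, adjusted p = 0.381) or the epithelial deviation (1.09, adjusted p = 0.0505) as a covariate. Without the arrays whose standard deviation was under 3 the difference was 0.81, with only WT 4T1OE-CTL replicate 2 left of its line.

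St14 was 8.38 and 8.35 on Nlrx1-/- and 8.21 and 8.45 on WT arrays of the 4T1OE line, a spread of 0.0984 (SD, n = 4), against an SD of 1.35 (n = 4) around 6.97 in 4T1OE-CTL tumours. The difference of 1.37 did not pass (SE 0.398, adjusted p = 0.0697). It did without WT 4T1OE-CTL replicate 1 (1.75, adjusted p = 0.0476) and with 1 mean per group (1.37, adjusted p = 0.0193). Prss8 had 4T1OE arrays at 5.63, 5.65, 5.75 and 4.99, all above its 4T1OE-CTL arrays, but 3 of them only just above background. Its fitted difference of 1.15 did not pass (SE 0.361, adjusted p = 0.0873). As a rough bound, which was not tested, it was 0.01 higher. WT 4T1OE replicate 2 enters this bound at 4.99, below background, so it is not a strict minimum. Prss8 passed without WT parental replicate 1 (adjusted p = 0.0283) and without WT 4T1OE-CTL replicate 2 (adjusted p = 0.039). Spint1 and Prss8 were thus the 2 genes of the 8 with 4T1OE arrays wholly above 4T1OE-CTL arrays, as 9.39% of all features were, and none lay wholly below them, where 7.13% did.

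Spint2 averaged 12.9 ± 0.274 in 4T1OE and 12.2 ± 0.468 in 4T1OE-CTL tumours (SD, n = 4 each), a difference of 0.66 (SE 0.283, adjusted p = 0.18), and it passed without WT 4T1OE-CTL replicate 2 (0.90, adjusted p = 0.0487). Tmprss11e averaged 11.6 ± 0.501 in 4T1OE and 10.7 ± 2.03 in 4T1OE-CTL tumours (SD, n = 4 each), a difference of 0.91 (SE 0.55, adjusted p = 0.329). For Prss22 the means were 7.61 ± 0.369 in 4T1OE and 7.82 ± 2.10 in 4T1OE-CTL tumours (SD, n = 4 each), a difference of -0.20 (SE 0.732, adjusted p = 0.888). With both hosts pooled, the spread of Tmprss11e, Prss22 and St14 among 4T1OE-CTL arrays was several times that among 4T1OE arrays. This spread includes the gap between the 2 hosts and is not a spread within a host. Macrophage markers rose in the same comparison, 7 of 13, and deviated by 0.37 to 0.82 on 4T1OE arrays, against -1.95 to -0.21 on 4T1OE-CTL arrays. Epithelial markers had 14 positive and 11 negative differences (median 0.10), with 2 passing as higher. Skeletal muscle markers had negative differences for 17 of 18 (median -0.68) and lymph node markers for 12 of 12 (median -0.51), with none passing. The part of these markers in the result was not tested.

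Against parental tumours, 4T1OE tumours had 0 of the 8 genes past the adjusted threshold in limma, where 1.33% of all features passed in either direction, 0.887% higher and 0.441% lower. At an unadjusted p under 0.05 there were 4 of the 8 and 13.8% of all features. The median difference was -0.65 over the 8 genes and -0.03 over all features. Prss22 was 7.42 and 7.20 on Nlrx1-/- and 7.84 and 7.99 on WT arrays of the 4T1OE line, against 10.35 on the Nlrx1-/- array and 8.24 and 10.70 on the WT arrays of the parental line. The fitted arrays of the lines did not overlap, and the difference was -1.93 (SE 0.798, adjusted p = 0.302). Prss22 passed without the arrays whose standard deviation was under 3 (-2.91, adjusted p = 0.00524), as did Tmprss11e (-1.61, adjusted p = 0.0324) and Spint2 (-1.18, adjusted p = 0.0343), 3 of 8 against 1.91% of features. That fit kept only replicate 2 of each parental group. It left out WT parental replicate 1, the fitted parental array nearest to the 4T1OE arrays for Prss22 (8.24) and Spint2 (13.24), so these calls rest on few arrays. With all 11 arrays the difference was -1.47 for Tmprss11e (adjusted p = 0.293), -0.90 for Spint2 (adjusted p = 0.206), -0.59 for St14 (adjusted p = 0.595) and -0.54 for Spint1 (adjusted p = 0.273). Tmprss11e, Prss22 and Spint1 had 4T1OE arrays wholly below the fitted parental ones, as 7.87% of all features did. None lay wholly above them, where 9.96% did. On the doubted array these genes were 11.70, 6.47 and 9.32 in the same order, and with it counted none of them stayed wholly below. Of 25 epithelial markers 8 fell in this comparison (median -1.13), with deviations of -0.25 to 0.07 on 4T1OE arrays, against 0.71 to 1.86 on parental arrays. Of 11 fibroblast markers 5 fell (median -1.41), with deviations of -0.68 to 0.00 on 4T1OE arrays, against 0.12 to 1.49 on parental arrays. Macrophage markers had positive differences for 13 of 13 (median 0.89) and skeletal muscle markers for 18 of 18 (median 1.40), with none passing. Their part in the values of the 8 genes was not tested. The 3 comparisons of lines share arrays, so their values for a gene are not independent of each other.

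Averaged over lines, Nlrx1-/- hosts did not differ from WT hosts past the threshold for any of the 8 genes or for any other feature (0% of 22206, limma), and the arrays of the 2 hosts did not separate for any of the 8, where 0.104% of features lay wholly higher and 0.104% wholly lower in Nlrx1-/- hosts. At an unadjusted p under 0.05 there were 2 of the 8 genes and 4.3% of all features. These 2 were Tmprss11e, with a difference of -1.59 (SE 0.476, unadjusted p = 0.00594, adjusted p = 1), and St14, with one of -1.13 (SE 0.344, unadjusted p = 0.00681, adjusted p = 1). Spint1 (-0.14, SE 0.17) and Spint2 (0.01, SE 0.245) had the smallest SEs of the genes above background and differences within 1 SE of 0. Within lines the differences between hosts were uneven. For Tmprss11e the Nlrx1-/- minus WT difference of means was -0.48 in 4T1OE, -3.38 in 4T1OE-CTL and -0.56 in parental tumours. For St14 it was 0.03, -2.25 and -1.17 in the same order, and for Prss22 it was -0.61, -3.59 and 0.88. The parental values set 1 Nlrx1-/- array against 2 WT arrays. With the doubted array included, the Nlrx1-/- parental mean was 8.41 for Prss22, against 9.47 in WT hosts, which turns the direction, and 7.47 for St14, against 9.51 in WT hosts. Averaged over lines, lymph node markers had positive Nlrx1-/- minus WT differences for 12 of 12 (median 1.63). Epithelial markers had negative ones for 21 of 25 (median -0.22) and skeletal muscle markers for 17 of 18 (median -0.67), with none passing. Their part in the values of the 8 genes was not tested.

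How the difference between 4T1OE and 4T1OE-CTL tumours varied with the host is given as a description only, because the set was chosen by values that include this contrast, for which Prss22 and Tmprss11e had been noticed earlier. Which values drew attention to the other 6 genes is not recorded. The set has no threshold. Prss22 was 7.42 and 7.20 on 4T1OE against 5.67 and 6.37 on 4T1OE-CTL arrays in Nlrx1-/- hosts, and 7.84 and 7.99 on 4T1OE against 9.48 and 9.75 on 4T1OE-CTL arrays in WT hosts. The 4T1OE arrays were thus the higher pair in Nlrx1-/- hosts and the lower pair in WT hosts, an order shared by 1.17% of all features. The Prss22 differences of means were 1.29 in Nlrx1-/- and -1.69 in WT hosts. Tmprss4 had the opposite order, as 1.69% of features did, on values mostly below background. Tmprss11e had differences of 2.36 in Nlrx1-/- and -0.54 in WT hosts, with overlapping arrays in WT hosts. St14 had 2.52 in Nlrx1-/- and 0.23 in WT hosts, the first of them limited by the floor. The inhibitors ran the same way in both hosts, as St14 did, with 1.56 in Nlrx1-/- and 0.83 in WT hosts for Spint1. Spint2 had 1.12 and 0.20. In WT hosts the 4T1OE and 4T1OE-CTL arrays overlapped for Spint2 and for St14. Prss8 also ran the same way, with 1.43 and 0.86, on values near or below background. The Nlrx1-/- minus WT gap in 4T1OE tumours was -0.48 for Tmprss11e, 0.03 for St14 and -0.61 for Prss22. In 4T1OE-CTL tumours it was -3.38, -2.25 and -3.59 in the same order. For the inhibitors it was 0.17 for Spint1 and 0.30 for Spint2 in 4T1OE tumours, against -0.56 and -0.63 in 4T1OE-CTL tumours. The Prss22 gap in 4T1OE tumours was of similar size to these last 2, and its 4T1OE arrays of the 2 hosts did not overlap.

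**Figure D3:**
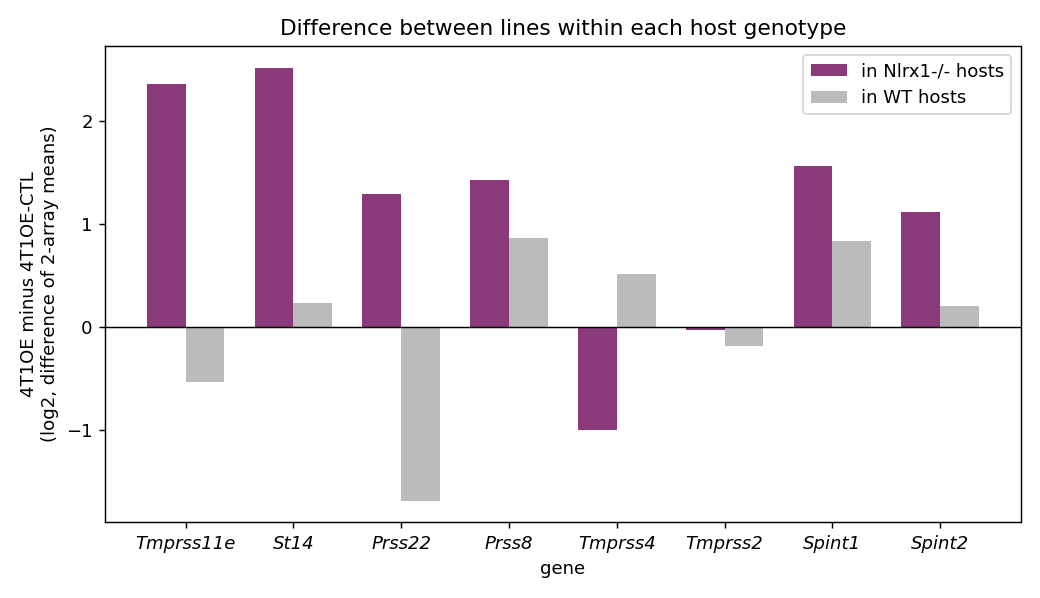
Difference between the means of 2 4T1OE and 2 4T1OE-CTL arrays (y axis, log2) for each gene (x axis), in Nlrx1-/- hosts (purple) and in WT hosts (grey). For Prss22 the bars point opposite ways (1.29 and -1.69), and for St14 and Tmprss11e the Nlrx1-/- bar is the tall one. Values of Tmprss4 and Tmprss2 lie mostly under the negative controls. No test is attached to the bars.

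On both Nlrx1-/- 4T1OE-CTL arrays, Tmprss11e, St14, Prss22, Spint1 and Spint2 were lower than on any of the other 9 fitted arrays. This was so for 5 of the 8 genes and for 6.75% of all features, and nothing is read from it, since it overlaps the contrast the genes were noticed for. Both arrays also had a standard deviation under 3. One of them (replicate 1) was high in lymph node genes and the other (replicate 2) in muscle genes. The epithelial list deviated by -0.65 and -0.97 on them, against 0.17 and -0.11 on the WT 4T1OE-CTL arrays. What part these properties had was not tested.

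The value of St14 minus that of Spint1 on the same array, set to 0 at its median over the fitted arrays, was -1.13 and -1.10 on the Nlrx1-/- 4T1OE-CTL arrays, against 1.03 and 0.12 on the WT 4T1OE-CTL arrays. It was 0.00 and -0.32 on Nlrx1-/- and -0.12 and 0.09 on WT arrays of the 4T1OE line, and -0.68 on the Nlrx1-/- array and 0.76 and 0.29 on the WT arrays of the parental line. A shift shared by both genes of an array cancels in this value, which shows unequal change and not which gene moved. Since St14 lay at the edge of background on the Nlrx1-/- 4T1OE-CTL arrays, the values there are limited by the floor. For the 2 inhibitors the same centred value, Spint1 minus Spint2, had a narrower range, from -0.58 to 0.57 on the fitted arrays. This measure was chosen after the values had been seen.

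Across the 11 arrays the 10 pairs among Tmprss11e, St14, Prss22, Spint1 and Spint2 had Pearson correlations of 0.498 to 0.929, the highest for Tmprss11e with St14. Arrays share groups, scale and pools of tissue, so these are descriptions. The genes most like Tmprss11e were Prrg4 (r = 0.98), Bloc1s3 (0.959), Cdh1, the E-cadherin gene (0.943), the keratin gene Krt7 (0.941) and Zdhhc20 (0.937). The genes most like St14 were Cdh1 (r = 0.977), the desmosomal cadherin gene Dsg2 (0.975), Plp2 (0.951), Slc4a11 (0.947) and Sh3d19 (0.945). For Prss22 they were Pyroxd1 (0.945), Olfr520 (0.934), Ube2z (0.932), Zdhhc20 (0.921) and Sspn (0.92). Spint1 was most like Fam160a1 (0.984), Tcaf1 (0.979), Trim33 (0.978), Tspyl1 (0.97) and Ccni (0.955), and Spint2 most like Sema4c (0.965), 0610010F05Rik (0.963), Kdm5b (0.962), Nipsnap1 (0.958) and Mpzl1 (0.957). Cdh1 and Zdhhc20 were the names that stood in 2 of these sets. With the doubted array added, Cdh1 had r = 0.911 with St14 (rank 12) and Dsg2 0.795 (rank 246). Zdhhc20 had 0.689 with Tmprss11e (rank 330), and Olfr520 had 0.576 with Prss22 (rank 1303). Prrg4 stayed the most like Tmprss11e (0.979) and Pyroxd1 the most like Prss22 (0.95).

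**Figure D4:**
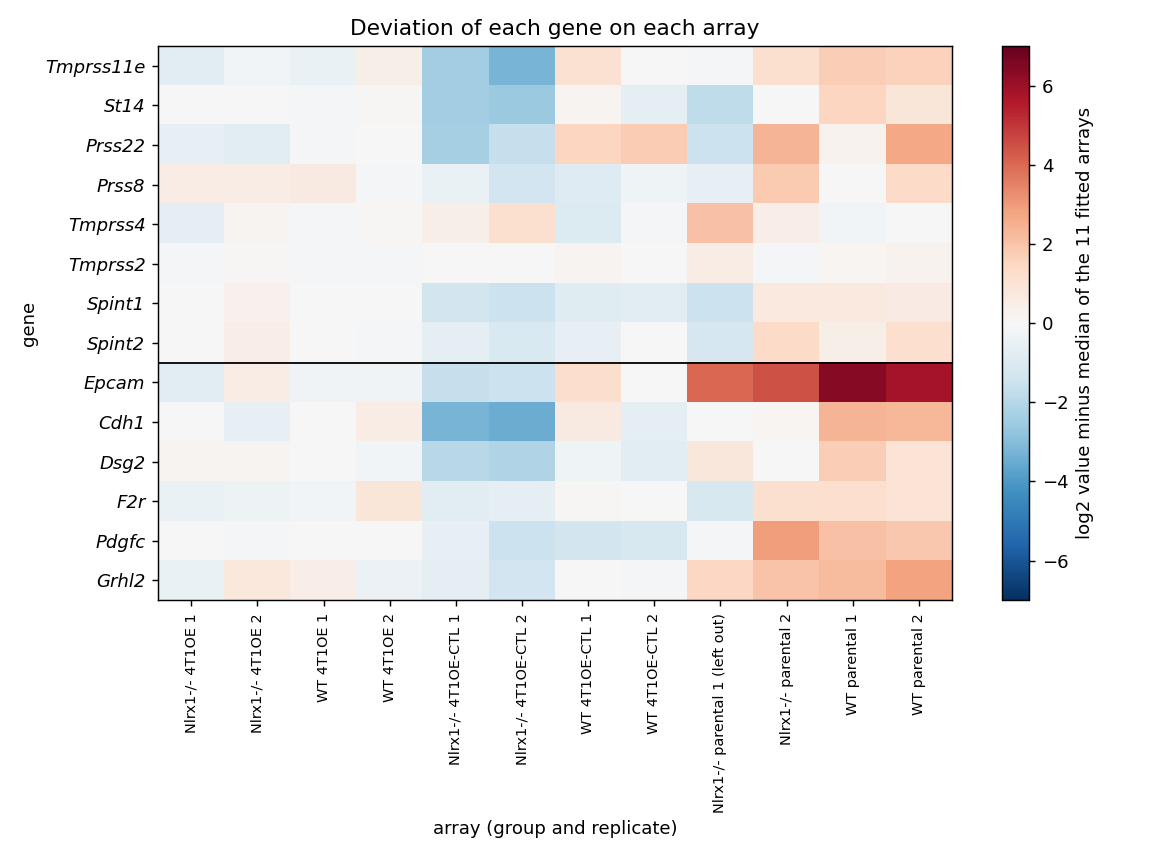
Deviation of each log2 value from its median on 11 fitted arrays (colour) for the 8 genes and, under the line, for 6 genes of substrates, receptors and epithelial regulators (y axis) on each array (x axis). Of the fitted arrays, the 2 Nlrx1-/- 4T1OE-CTL arrays are lowest for Tmprss11e, St14, Prss22, Spint1, Spint2, Epcam, Cdh1, Dsg2, F2r and Grhl2. Epcam stands above its median on all parental arrays.

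Tmprss4 and Tmprss2 gave little to compare. Tmprss4 was above background only on Nlrx1-/- 4T1OE-CTL replicate 2 (6.12) and Nlrx1-/- parental replicate 2 (5.44) among the fitted arrays, and on the doubted array (7.02). Tmprss2 ran from 3.91 to 4.26 on the fitted arrays. Of 19 other membrane-anchored serine protease genes measured, 13 were below background on every fitted array and 0 passed in any of the 4 comparisons (limma). At an unadjusted p under 0.05 were Tmprss3 and Tmprss11c in 4T1OE against 4T1OE-CTL tumours (unadjusted p = 0.00589 and 0.0081 in limma) and in 4T1OE-CTL against parental tumours (0.0216 and 0.0263), both near or below background, and Tmprss6 in 4T1OE against parental tumours (-0.71, unadjusted p = 0.00394). Among 17 other epithelial serine proteases Prss23 rose by 1.90 in 4T1OE against 4T1OE-CTL tumours (SE 0.487, adjusted p = 0.0478), while Prss12 (-1.30, adjusted p = 0.0334) and Klk7 (-0.94, adjusted p = 0.0472) fell.

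Among 24 other serine protease inhibitor genes 1 fell in 4T1OE-CTL against parental tumours, Aplp2 (-1.25, SE 0.193, adjusted p = 0.00583), whose protein carries a Kunitz domain like those of HAI-1 and HAI-2. The median over that list was 0.25, with 16 positive and 8 negative differences. In 4T1OE against parental tumours Serpinb8 passed as higher in limma (adjusted p = 0.0419). Its size is given as a bound, at least 0.86 higher, which was not tested. In 4T1OE against 4T1OE-CTL tumours Wfdc3 passed as lower (adjusted p = 0.0411) with both lines below background, so no size is given.

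Of 20 measured genes for substrates and partners of these proteases, 4 fell in 4T1OE-CTL against parental tumours and none rose. They were Epcam (-5.84, adjusted p = 0.000619), the epithelial adhesion molecule that matriptase can cut, the growth factor gene Pdgfc (-3.43, adjusted p = 0.000409), whose protein is released from a latent form by proteolysis, Dsg2 (-2.05, adjusted p = 0.0158) and F2r (-1.36, adjusted p = 0.0228), which encodes the thrombin receptor PAR1. The median over this list was -0.06. In 4T1OE against 4T1OE-CTL tumours Pdgfc rose by 1.08 (SE 0.254, adjusted p = 0.0371), and Dsg2 had 1.32 (SE 0.347, adjusted p = 0.0513). Hgf and Met, which encode hepatocyte growth factor and its receptor, passed in none of the 4 comparisons. In 4T1OE against parental tumours 2 of the 20 fell, Epcam (-5.56, adjusted p = 0.00105) and Pdgfc (-2.35, adjusted p = 0.00398).

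Among 20 epithelial regulators 3 fell in 4T1OE-CTL against parental tumours, with a list median of -0.01. They were Grhl2, a Grainyhead factor of epithelial genes (-2.79, adjusted p = 0.0022), and the epithelial splicing regulators Esrp1 (-3.26, adjusted p = 0.00187) and Esrp2 (-1.53, adjusted p = 0.0329). In 4T1OE against parental tumours 2 fell, Grhl2 (-2.18, adjusted p = 0.0176) and Esrp1 (-2.96, adjusted p = 0.00819), with a list median of -0.25. In 4T1OE against 4T1OE-CTL tumours 1 fell, Trp63 (-1.30, adjusted p = 0.0434), which encodes the basal epithelial factor p63, with a list median of -0.01. None of the 20 rose in these 3 comparisons.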

How the data were processed

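Clariom S arrays measured pooled 4T1 tumour RNA, 12 tumour arrays in 6 groups, grouped by sample title. The deposited values were log2 expression values, which the authors had normalized and summarised per transcript cluster. The Transcriptome Analysis Console was named without a version, per the submitters' processing notes. The normalization method and build are not given in the sources used here. A column of the manufacturer's control RNA held no values. Values were used as deposited. Of 28846 features 6640 controls were removed and 22206 tested, 19572 of them with 1 gene symbol from the platform annotation. Where a gene had several features, the one with the highest mean was taken.

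Host genotype and tumour line entered as additive terms of a model fitted to 11 arrays with limma 3.58.1 in R 4.3.3 (lmFit, eBayes, two-sided, Benjamini-Hochberg over all features, threshold 0.05). The code was tested on simulated data. Background was each array's median over 5222 negative control features. Precision is limited by the number of arrays. Replicate numbers did not pair the samples (2 of 10 pairs of groups had r above 0.1). The 8 genes and the gene lists were chosen with earlier results of these data known. Genes named were the 8, genes of the protease, inhibitor, substrate and regulator lists that passed with up to 4 others a list by smallest p, and the 5 most alike each gene by Pearson r. The closing section gives the alternative settings.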

Additional observations from a re-analysis of the deposited data

Results flagged for a closer look

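Of 32 checks for a value far from its group, 4 stood out, where chance gives about 1 in 20. Tmprss2 on Nlrx1-/- 4T1OE replicate 2 was 4.14, with the nearest 4T1OE array at 3.94, and all were below background. Tmprss4 on WT 4T1OE-CTL replicate 1 was 4.06, with the nearest WT array at 4.79, also below background. Prss8 on WT 4T1OE replicate 2 was 4.99, with the nearest 4T1OE array at 5.63. Spint1 on Nlrx1-/- 4T1OE replicate 2 was 11.12, with the nearest 4T1OE array at 10.83. The difference between 4T1OE and 4T1OE-CTL arrays ran opposite ways in Nlrx1-/- and WT hosts on every array for Prss22, by 2.98 between the hosts, and for Tmprss4, by -1.51 on values mostly below background. This difference was not tested.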

How the results depend on the processing

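In 4T1OE against 4T1OE-CTL tumours 1 of the 8 genes passed, against 4.73% of all features. There were 0 with the doubted array added (0.113% of all features) and without the 2 arrays highest in lymph node genes (0.27%). There were also 0 with the array standard deviation (0.018%) or the epithelial deviation (0.675%) as a covariate. Array weights (9.64%) and 1 mean per group (4.47%) gave 2, and an unadjusted p under 0.05 with a fold of 2 or more gave 3 (6.71%). With single arrays left out there were 0 to 3 (0.315% to 12% of all features). Without the arrays of standard deviation under 3 only WT 4T1OE-CTL replicate 2 was left of its line. No count is given there for comparisons with that line. In 4T1OE-CTL against parental tumours 4 passed, against 2.59% of all features. There were 0 when the doubted array was added (0.707%) and with the epithelial covariate (0.0225%), and 1 without the 2 lymph node arrays (1.89%). With single arrays left out there were 1 to 4 (0.567% to 3.96%). In 4T1OE against parental tumours 0 passed, against 1.33% of all features. There were 2 under array weights (3%) and under the unadjusted rule (4.72%). The standard deviation covariate gave 1 (0.68%), and leaving out the arrays of standard deviation under 3 gave 3 (1.91%). That last fit kept only replicate 2 of each parental group. Between hosts 0 passed (0% of all features), and 2 did under the unadjusted rule (0.459%). St14 reversed to 0.08 with the epithelial covariate in 4T1OE-CTL against parental tumours. The cause was not tested. The main fit did not treat replicate numbers as pairs. With the replicate block 1 gene passed in 4T1OE against 4T1OE-CTL tumours (3.97% of all features) and 4 in 4T1OE-CTL against parental tumours (2.16%). The host contrast of the line difference was 0.52 for Spint1 after quantile normalization, and with single arrays left out it was 2.63 to 3.33 for Prss22, 1.85 to 2.72 for St14 and 0.59 to 0.88 for Spint1. With 12 arrays 3 of the 5 genes most like Prss22 stayed among its 5, 1 for St14 and 2 for Spint1. Every gene had 1 feature, so another choice of feature could not be tried. Values below the negative controls limit Tmprss2, Tmprss4 and Prss8.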
